A study of Homo sapiens with 6 samples.

Results

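Histones are the proteins around which DNA is wrapped, and their genes were followed here in T47D breast cancer cells made to overexpress prolactin. Members were all rows of the gene table whose symbol starts as an H1, H2A, H2B, H3 or H4 histone gene under the current naming, which gave 74 of 17891 genes. Of these, 60 are replication-dependent genes, whose symbols carry the cluster letter C and a number, together with the numbered linker histone genes of the clusters. The other 14 are variant genes, a class that by this rule also holds H3-2, H3-4, H3-5 and H4-16. T47D, a long-established luminal breast cancer line of human origin, was the cell studied, and the comparison asks by RNA sequencing how its RNA differs when prolactin, the lactation hormone, is overexpressed. In the PRL group, 3 libraries came from T47D cells that carried PRL in the PLVX-puro lentivirus. In the control group, 3 libraries came from T47D cells with the empty PLVX-puro lentivirus. Both groups shared the parental line, the viral system, the selection step and growth in serum-containing medium, and no further treatment is named. The series calls the 3 libraries of a group biological replicates. Which promoter drives PRL, and whether the transduced cells were a pool or 1 clone, is not given in the sources used here.

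Replication-dependent histone genes stand in clusters, are mostly transcribed while DNA is copied, and give mRNAs without introns that end in a short stem-loop in place of a poly(A) tail. Stem-loop binding protein holds that hairpin and guides processing, export and translation, and the mRNAs are degraded when replication ends. Variant histone genes are scattered in the genome, are expressed outside S phase too, mostly give polyadenylated mRNAs, and their proteins replace the replicative ones at particular sites. H1 linker histones bind where DNA enters and leaves the nucleosome, and H2A, H2B, H3 and H4 form its core.

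PRL itself was at 458.1, 445.6 and 444.2 CPM (estimated counts scaled to library size with edgeR's TMM factors) in the PRL libraries and at 0.2032, 0.1912 and 0.06236 CPM in the control libraries. The labels and the overexpressed gene therefore match in all 6 libraries. Rounded estimated counts summed to between 16211146 and 16646457 per PRL library and between 16432849 and 17402348 per control library. Replicates were closer in the PRL group: the chi-square per gene was 1.68 to 2.2 between pairs of PRL libraries and 13.2 to 25.2 between pairs of control libraries. All 10 luminal markers of T47D passed the filter on low counts. Of these, 3 were called higher and 4 lower in PRL cells. Of the 8 stromal markers 2 passed the filter, COL1A1 (called higher, 0.51 on the log2 scale) and ACTA2 (called lower, -1.01), and the list summed to 78.65 to 80.24 CPM in PRL libraries and 57.12 to 74.84 CPM in control libraries. Of the 7 immune markers measured 5 passed it, of which CD3E (0.97) and CD14 (1.30) were called higher and LYZ (-0.94) lower, and their sum was 8.025 to 9.468 CPM in PRL libraries and 6.859 to 9.371 CPM in control libraries. The part of such markers in the histone results was not tested. Much of the transcriptome differed: edgeR's quasi-likelihood test, with Benjamini-Hochberg adjustment over 14076 genes and a threshold of 0.05, called 32.4% of genes higher and 30.5% lower in PRL cells, 62.9% in either direction, and over all of them the median was 0.01 on the log2 scale. In such bulk samples, a change in the share of cells that express a gene and a change in RNA per cell cannot be told apart.

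Replication-dependent histone genes were mostly called higher in PRL cells, and variant genes were called in both directions. Of the 26 replication-dependent members that passed the filter on low counts, 20 were called higher in PRL cells, 2 lower and 4 neither way, beside the 32.4% higher and 30.5% lower among all genes tested, and their median log2 fold change was 1.2. For 20 of them every PRL library lay above every control library and for 2 below, where 35.9% of all genes tested lay above and 33.5% below. Of the 9 variant members tested, 2 were called higher, 4 lower and 3 neither way, with a median of -0.21 that turned to 0.05 with library totals, 0.05 with FPKM and 0.25 with TPM. The remaining 34 replication-dependent and 5 variant members had too few counts to be tested, and a member could also pass the filter through the group in which it is high. A further 2 of the tested members, H4C14 and H4C15, hold identical values in the table and count as 1 measurement. With copies that share most of their sequence summed, a choice made after the data had been seen, 20 of 24 tested replication-dependent entries were called higher and 2 lower.

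**Figure D1:**
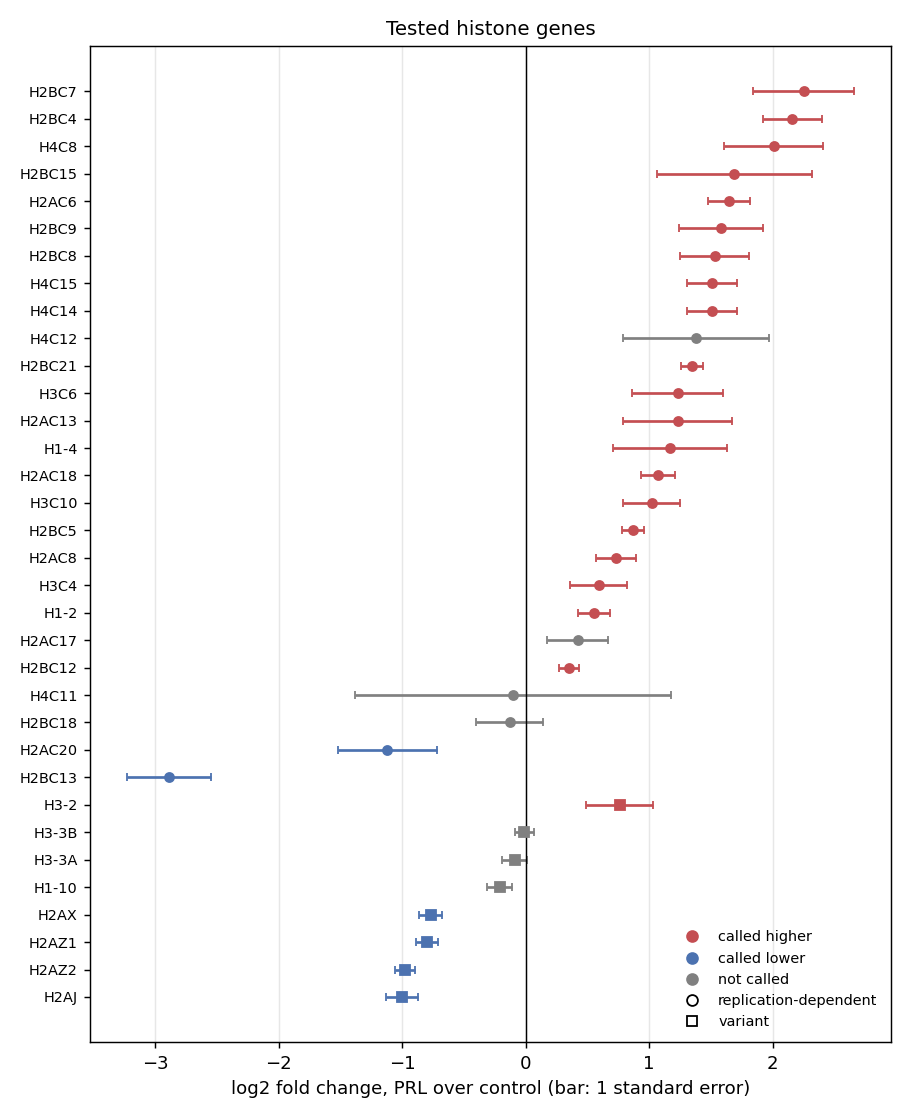
log2 fold change of PRL over control for the tested histone genes described here, with standard errors, with circles for replication-dependent and squares for variant genes, in red where called higher, blue where called lower and grey where not called. Replication-dependent genes lie mostly right of 0 with H2BC13 and H2AC20 to the left, and among the variant genes H2AJ, H2AX, H2AZ1 and H2AZ2 lie left of 0.

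H1-2, the most abundant replication-dependent linker histone here, had 43.67, 47.99 and 50.65 CPM in PRL cells and 40.38, 28.88 and 28.31 CPM in control cells. The groups did not overlap, though control library 1 came close to the lowest PRL library, and the log2 fold change was 0.55 (SE 0.13, adjusted p 0.00401 in edgeR's test). H1-4, a clustered linker histone present at only a few counts per library, had 12, 11 and 14 counts in PRL libraries and 8, 3 and 3 counts in control libraries, with a log2 fold change of 1.17 (SE 0.46, adjusted p 0.0464 in edgeR's test). The call of H1-4 was lost without PRL library 1, 2 or 3 or control library 2 or 3 (values 0.92 to 1.25), and under DESeq2 (1.16). H1-10, a variant linker histone expressed in many cell types, was at 304.6, 322.4 and 342.8 CPM in PRL cells and 421.7, 357.2 and 343.2 CPM in control cells. Its PRL libraries all lay below its control libraries, by as little as the gap between 342.8 and 343.2 CPM, and it was not called (log2 fold change -0.21, SE 0.10, adjusted p 0.0777 in edgeR's test). This depends on the scaling and on single libraries. H1-10 was 0.05 with library totals, was called higher with TPM (0.25), and was called lower without control library 3.

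The H2A variants fell together. H2AZ1 and H2AZ2 encode the isoforms of H2A.Z, which sits at promoters and enhancers. H2AX is the variant phosphorylated at DNA breaks, and H2AJ is a variant linked in cultured human fibroblasts to senescence. All 4 were called lower in PRL cells, and for each of them every PRL library was below every control library.

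H2AJ (chr12:14774383-14778002, plus strand, GRCh38) had 116, 121.3 and 118.8 CPM in PRL libraries, against 291.8, 221.5 and 198.8 CPM in control libraries. Its control libraries were widely spread and still all above the PRL libraries, with a log2 fold change of -1.0 (SE 0.13, adjusted p 6.94e-05 in edgeR's test). H2AZ2 (chr7:44826791-44848083, minus strand) had 126.8, 129.3 and 134 CPM in PRL libraries, against 277.1, 245.5 and 247.7 CPM in control libraries. That difference was the most firmly called of the 4, at a log2 fold change of -0.98 (SE 0.08, adjusted p 3.56e-06 in edgeR's test).

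H2AZ1 (chr4:99948086-99950388, minus strand) had 233.2, 238.1 and 242.1 CPM in PRL libraries, against 464.2, 368.7 and 413.6 CPM in control libraries. Its log2 fold change was -0.80 (SE 0.09, adjusted p 4.16e-05 in edgeR's test), and with each library's trend on gene length removed it was -0.18 and no longer called. H2AX (chr11:119093854-119095467, minus strand) had 295.2, 289 and 307 CPM in PRL libraries, against 563.9, 467.8 and 490.5 CPM in control libraries, with a log2 fold change of -0.77 (SE 0.09, adjusted p 4.31e-05 in edgeR's test). H2AX is the variant gene whose transcripts can end either in a histone stem-loop or in a poly(A) tail.

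H3-3A and H3-3B, which both encode the replacement histone H3.3, were the most abundant H3 genes and were not called on the TMM scale. H3-3A had 650.3, 661.1 and 667.7 CPM in PRL cells and 693.6, 624 and 790.6 CPM in control cells, and H3-3B had 466.5, 470.9 and 472.2 CPM in PRL cells and 505.4, 433.2 and 485.3 CPM in control cells. The groups overlapped for both genes, with log2 fold changes of -0.09 (SE 0.10, adjusted p 0.439 in edgeR's test) and -0.01 (SE 0.08, adjusted p 0.889 in edgeR's test). This depends on the scaling: H3-3B was called higher with library totals (0.24), FPKM (0.24) and TPM (0.44), and H3-3A with TPM (0.37) and with the length trend removed (0.41). H3-2 was called higher (log2 fold change 0.76, SE 0.27, adjusted p 0.0283 in edgeR's test), with at most 77 counts in a library. Its GENCODE 29 transcript has 411 bases, and 100% of its stretches of 50 bases also occur in transcripts of other annotated genes. Counts over FPKM gave H3-2 a length of 2443 bases, and the rest of that length was not checked for sharing. The reads of H3-2 therefore cannot be assigned to it with certainty. The call of H3-2 was lost when any 1 of the PRL libraries was left out. Of the 5 variant members not tested, H3-5 had the most counts, 8, 8 and 11 in PRL libraries and 2, 2 and 0 in control libraries, a ratio of 5.84 with an exact interval of 2.03 to 22.9 for counting error. In H3-5, 21.8% of the stretches of 50 bases also occur in H3-3B, so its few reads cannot all be assigned with certainty.

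**Figure D2:**
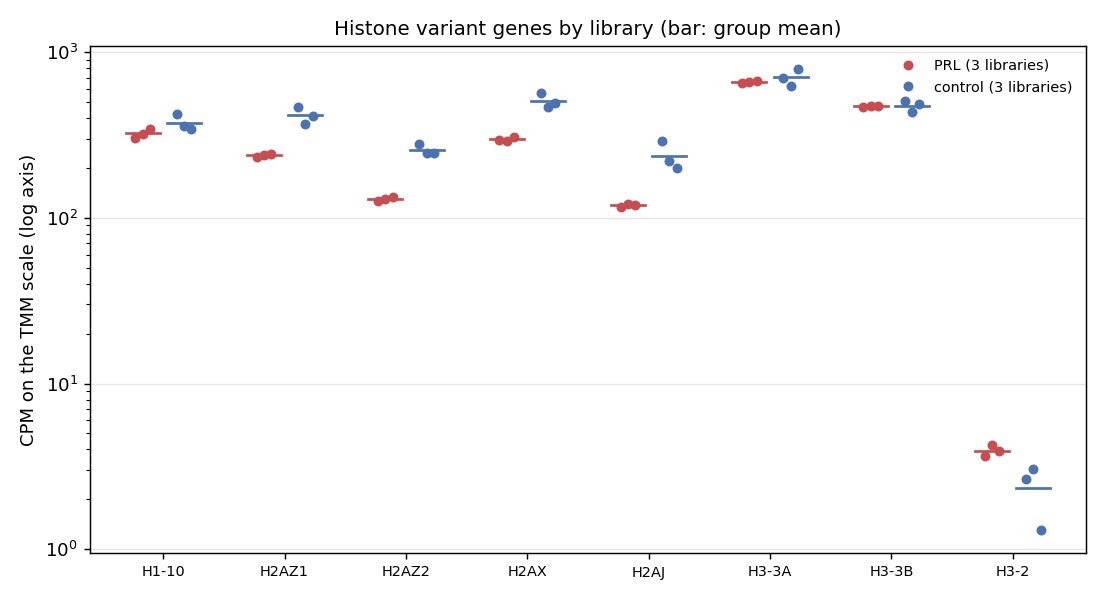
CPM (TMM scale, log axis) of the tested variant histone genes described here in each of 3 PRL libraries (left) and 3 control libraries (right), with group means. The points of H2AJ, H2AX, H2AZ1 and H2AZ2 are lower in every PRL library than in any control library.

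The replication-dependent mRNAs carry the hairpin by which their ends are formed, and its sequences are shown for the 19 tested replication-dependent members in which it was found and for H2AX. In GENCODE 29 transcripts on GRCh38, an arm of 6 bases, a loop of 4 bases and a second arm of 6 bases were searched on the sense strand. The pattern was the arm GGNNCT, the loop TNTN and the arm AGNNCC in a row, and the NN of the 2 arms did not have to match. The capitals mark the 2 arms of the stem, and the lower case letters mark the loop.
H2BC21, H2AC6, H2AC8, H2AC13, H2AC18, H2BC8, H2BC9, H2BC13, H2BC15, H2BC18 and H3C10: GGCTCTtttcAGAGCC
H2BC4, H2BC5 and H2BC7: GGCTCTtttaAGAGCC
H3C6: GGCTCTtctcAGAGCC
H4C8 and H4C11: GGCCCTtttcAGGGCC
H4C14 and H4C15: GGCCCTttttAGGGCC
H2AX: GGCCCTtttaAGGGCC
The motif was found in 31 of the 74 members and in 185 of 58721 annotated genes (0.315%). It occurred in 28 of the 60 replication-dependent members, and also in the variant genes H2AX, H3-4 and H4-16. In H2AC11, 1 of these 28 members, the arms are not fully complementary. Annotated transcripts of many members without a match are short, such as 381 bases for H2BC12, 390 for H2AC20 and 312 for H4C12. They may end before the hairpin, so a missing match does not show that it is absent. The H4 genes and H2AX share a stem that differs from that of the H2A, H2B and H3 genes shown. Of the 19 tested replication-dependent members with a stem-loop match, 16 were called higher and 1 lower, beside 32.4% higher and 30.5% lower among all genes tested. Their median was 1.35, against 1.2 for the 26 tested members of the class. Some annotated transcripts run on past the hairpin, by 1729 bases for H2BC21 and 1128 bases for H2AC6, whereas the 1 transcript of H2BC5 that holds it ends 39 bases after it. H2BC5 has 2 annotated transcripts, and the other, without the hairpin, is the longer. How RNA was selected for these libraries is not given in the sources used here, and its part in the levels of mRNAs that end without a poly(A) tail was not tested.

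Most replication-dependent counts fell on few genes. H2BC12, H2BC5, H2AC18, H1-2 and H2BC21 held 85.1% of all counts of this class, H2BC12 alone 43.0%, summed over both groups. These shares of counts are not per length. In FPKM, H2BC21 averaged 19.54 in PRL cells and 6.413 in control cells. That is below H2AC6 (28.48 and 7.607) and H2AC8 (22.7 and 11.36). H2BC12 held 39.4% ± 0.65 of the CPM of the class in PRL cells and 49.6% ± 3.1 in control cells (SD, n = 3 each). Of the stretches of 50 bases in its GENCODE 29 transcript of 381 bases, 74.1% also occur in other genes. Counts over FPKM gave H2BC12 a longer length, 790 bases. Summed over all 60 genes, the class was at 461.5, 485.9 and 484.8 CPM in PRL libraries and 326.7, 273 and 297.2 CPM in control libraries. The groups did not overlap, and the log2 ratio of the means was 0.68. The 14 variant genes summed to 2949 ± 52.24 CPM in PRL cells and 3214 ± 250.8 CPM in control cells (SD, n = 3 each), a log2 ratio of -0.12 that changes sign with other scalings. Of the FPKM of all 74 members, replication-dependent genes held 26.6% ± 0.463 in PRL cells and 16% ± 0.428 in control cells (SD, n = 3 each). As RNA selection is not given, these measured shares may not be those of the RNA in the cells.

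H2B genes were the largest tested family among the replication-dependent genes. The proteins of its members differ by few residues and take the same place in the nucleosome core. Of 10 tested H2B genes, 8 were called higher, 1 lower and 1 neither way, beside 32.4% higher and 30.5% lower among all genes tested.

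H2BC12 (chr6:27146418-27146798, minus strand, GRCh38) had 185.4, 190.1 and 189 CPM in PRL libraries, against 151.1, 136.9 and 155.7 CPM in control libraries. Although its groups did not overlap, its log2 fold change was only 0.35 (SE 0.08, adjusted p 0.00236 in edgeR's test). H2BC5 (chr6:26158146-26171349, plus strand) had 60.27, 62.24 and 63.99 CPM in PRL libraries, against 38.68, 30.22 and 33.49 CPM in control libraries, with a log2 fold change of 0.87 (SE 0.09, adjusted p 2.84e-05 in edgeR's test). The other H2B genes called higher had larger fold changes than H2BC12.

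H2BC21, a gene of the smaller cluster on chromosome 1 (chr1:149884459-149886652, minus strand), had 38.91, 39.24 and 38.5 CPM in PRL libraries, against 14.9, 16.38 and 14.34 CPM in control libraries. Both groups were tight and far apart, and it was the replication-dependent member with the smallest adjusted p (log2 fold change 1.35, SE 0.09, adjusted p 7.28e-07 in edgeR's test). H2BC4 (chr6:26114873-26123926, minus strand) had 4.926, 8.035 and 6.73 CPM in PRL libraries and 1.219, 1.402 and 1.746 CPM in control libraries. The lowest PRL library was still well above the highest control library, and the log2 fold change was 2.16 (SE 0.24, adjusted p 2.91e-05 in edgeR's test), a 4.48-fold difference.

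H2BC8, H2BC9 and H2BC7 lie in the same cluster on chromosome 6 and rose with log2 fold changes of 1.53, 1.58 and 2.25 (adjusted p 7.40e-04, 0.00221 and 7.82e-04 in edgeR's test). H2BC7 is rare, at 17, 20 and 14 counts in PRL libraries and 3, 2 and 4 counts in control libraries, a ratio of 4.9 with an exact interval of 2.39 to 11.3 for counting error. H2BC15 was at 22, 22 and 20 counts in PRL libraries and 0, 3 and 14 counts in control libraries. Its control libraries were too unlike each other for a stable value, and the log2 fold change of 1.69 (SE 0.63, adjusted p 0.0366 in edgeR's test) ranged between 1.15 and 3.52 when 1 library at a time was left out, and was not called without any 1 PRL library or without control library 1 or 2. H2BC18 was not called (log2 fold change -0.13, SE 0.27, adjusted p 0.683 in edgeR's test) and its groups overlapped.

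H2BC13 went the other way. It lies on chromosome 6 at chr6:27807444-27807931 on the minus strand and had 0.3874, 0.3852 and 0.2852 CPM in PRL libraries, against 3.455, 2.614 and 1.933 CPM in control libraries. In estimated counts this is 7, 7 and 5 in PRL libraries and 51, 41 and 31 in control libraries, with no overlap. The log2 fold change was -2.89 (SE 0.34, adjusted p 4.42e-05 in edgeR's test), or 7.39-fold lower, and it remained called in each alternative and with any 1 library left out.

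Of 6 tested replication-dependent H2A genes, 4 were called higher and 1 lower, beside 32.4% higher and 30.5% lower among all genes tested. H2AC18 (chr1:149842188-149842736, minus strand) had 61.76, 68.63 and 63.42 CPM in PRL libraries, against 39.02, 27.67 and 25.69 CPM in control libraries. Its log2 fold change was 1.07 (SE 0.14, adjusted p 7.55e-05 in edgeR's test), and it shares 100% of its stretches of 50 bases with other entries, foremost its copy H2AC19. H2AC19 had 0 counts in all 6 libraries. The sum of both copies is therefore H2AC18 alone, with the same log2 fold change of 1.07, and says nothing about shared reads.

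H2AC6 (chr6:26124145-26139116, plus strand) had 11.73, 11.67 and 13.4 CPM in PRL libraries, against 3.252, 3.379 and 5.051 CPM in control libraries, with a log2 fold change of 1.65 (SE 0.17, adjusted p 1.85e-05 in edgeR's test). H2AC8 was at 11.62, 10.18 and 10.21 CPM in PRL libraries and 7.994, 5.992 and 5.3 CPM in control libraries, with a log2 fold change of 0.73 (SE 0.16, adjusted p 0.00197 in edgeR's test). For both genes every PRL library lay above every control library. H2AC20 was called lower (log2 fold change -1.12, SE 0.40, adjusted p 0.0298 in edgeR's test), on 11, 27 and 25 counts in PRL libraries and 58, 25 and 35 counts in control libraries. The call of H2AC20 is not stable: without PRL library 1 the log2 fold change was -0.81, and without control library 1 it was -0.68, in both cases not called. It was also not called with library totals (-0.85), TPM (-0.57), FPKM with a pseudocount of 0.1 (-0.86), unfiltered FPKM (-0.68) or the length trend removed (-0.26). H2AC13, at 11, 14 and 19 counts in PRL libraries and 8, 3 and 5 counts in control libraries, was called higher (log2 fold change 1.23, adjusted p 0.0316 in edgeR's test) and lost its call without PRL library 2, PRL library 3, control library 2 or control library 3 (values 0.94 to 1.27). H2AC17 was not called, at a log2 fold change of 0.42 (adjusted p 0.164 in edgeR's test), and overlaps another gene over 88.0% of its exon bases. With library totals, FPKM, TPM or the length trend removed, H2AC17 was called higher.

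FPKM values are per length and allow the measured levels of different H2A genes to be compared, and the shares of these genes differed between the groups. How RNA was selected is not given. Measured shares of mRNAs with and without a poly(A) tail may therefore not be those in the cells. Replication-dependent genes held 24.2%, 25.4% and 24.1% of H2A FPKM in the PRL libraries, against 8.97%, 8.05% and 7.69% in the control libraries. Most of this was H2AC18, at 17.1% ± 0.864 in PRL cells and 5.51% ± 0.69 in control cells (SD, n = 3 each). H2AZ1 held 37.3% ± 0.0885 of H2A FPKM in PRL cells and 44.4% ± 1.39 in control cells, and H2AX held 24.7% ± 0.662 in PRL cells and 28.7% ± 0.549 in control cells (SD, n = 3 each). In the H2B pool, where all members are replication-dependent, H2BC12 held 62.8% ± 0.623 in PRL cells and 72.1% ± 1.44 in control cells (SD, n = 3 each).

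**Figure D3:**
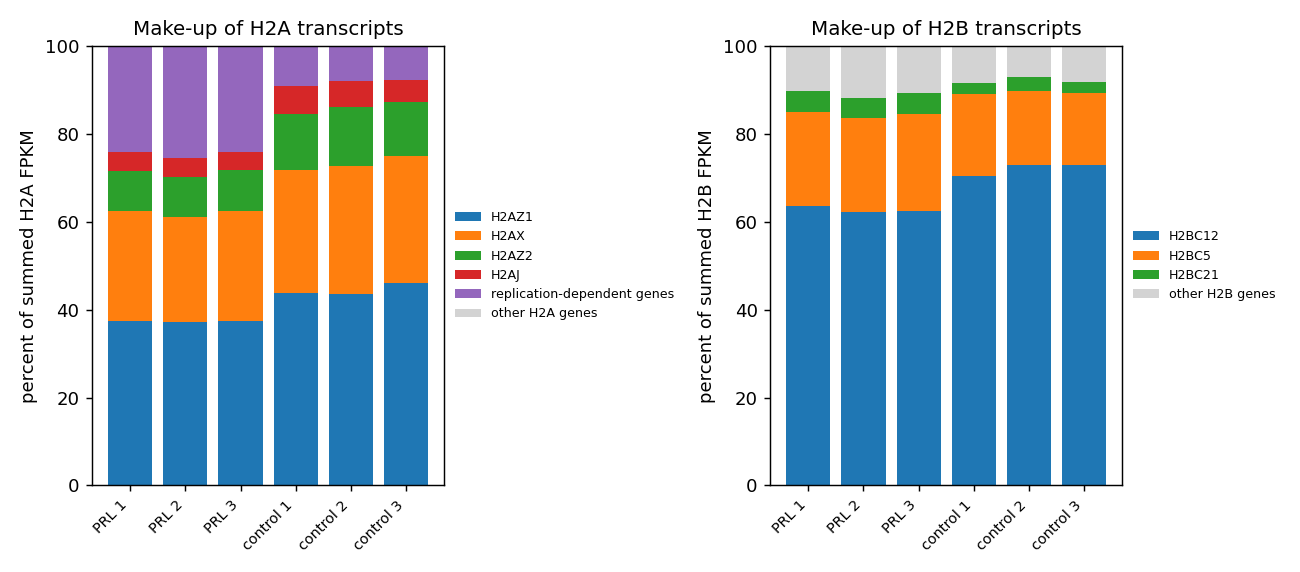
Percent of the summed FPKM of a histone family held by its main genes, for H2A (left panel) and H2B (right panel), as 1 stacked bar for each PRL library and each control library. Replication-dependent genes hold 24.1% to 25.4% of H2A FPKM in PRL libraries and 7.69% to 8.97% in control libraries.

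The replication-dependent H3 and H4 genes were measured at much lower levels. H3C10 had 3.099, 2.862 and 2.852 CPM in PRL libraries and 1.558, 1.084 and 1.684 CPM in control libraries, with no overlap and a log2 fold change of 1.02 (SE 0.23, adjusted p 0.00258 in edgeR's test). H3C6 rose at 13, 17 and 22 counts in PRL libraries and 5, 8 and 6 counts in control libraries (log2 fold change 1.23, adjusted p 0.0146 in edgeR's test), and was not called without PRL library 3 (1.0). H3C4 was called (log2 fold change 0.59, adjusted p 0.0437 in edgeR's test) although its groups overlapped, 100% of its exon bases overlap other annotated exons, and its call was lost without PRL library 2, PRL library 3, control library 2 or control library 3 (0.43 to 0.54). Clustered H3 genes held 2.31% ± 0.254 of H3 FPKM in PRL cells and 1.5% ± 0.391 in control cells (SD, n = 3 each), the rest being mainly H3-3A and H3-3B. The limit from unknown RNA selection holds for these shares too.

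Nearly all H4 genes encode the same protein, but their base sequences can differ, and H4C8 shares 0.0% of its stretches of 50 bases with other genes. H4C11 and H4C12 share 81.2% and 100% of theirs, and H4C14 and H4C15 97.5% and 97.2%. Reads of these 4 genes are therefore hard to assign. H4C14 and H4C15 were both listed at 5.036, 5.393 and 5.589 CPM in PRL libraries and 1.355, 1.912 and 2.307 CPM in control libraries, with a log2 fold change of 1.51 (SE 0.20, adjusted p 1.06e-04 in edgeR's test). H4C8 was at 21, 15 and 21 counts in PRL libraries and 3, 3 and 6 counts in control libraries, a log2 fold change of 2.01 (SE 0.40, adjusted p 0.00135 in edgeR's test). In both cases the groups were well apart. H4C11 was at 16, 0 and 20 counts in PRL libraries and 33, 0 and 0 counts in control libraries, while H4C12 was at 52, 77 and 68 counts in PRL libraries and 0, 27 and 39 counts in control libraries. Neither was called (adjusted p 0.952 and 0.0655 in edgeR's test), and H4C11 had no reads in 3 of the 6 libraries. H4C12 was called higher with library totals, with the length trend removed and without control library 1 or 3. Summed, H4C11 and H4C12 were at 68, 77 and 88 counts in PRL libraries and 33, 27 and 39 counts in control libraries, a log2 fold change of 1.02 (SE 0.20, adjusted p 0.00138 in edgeR's test) in a run chosen after the data had been seen.

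**Figure D4:**
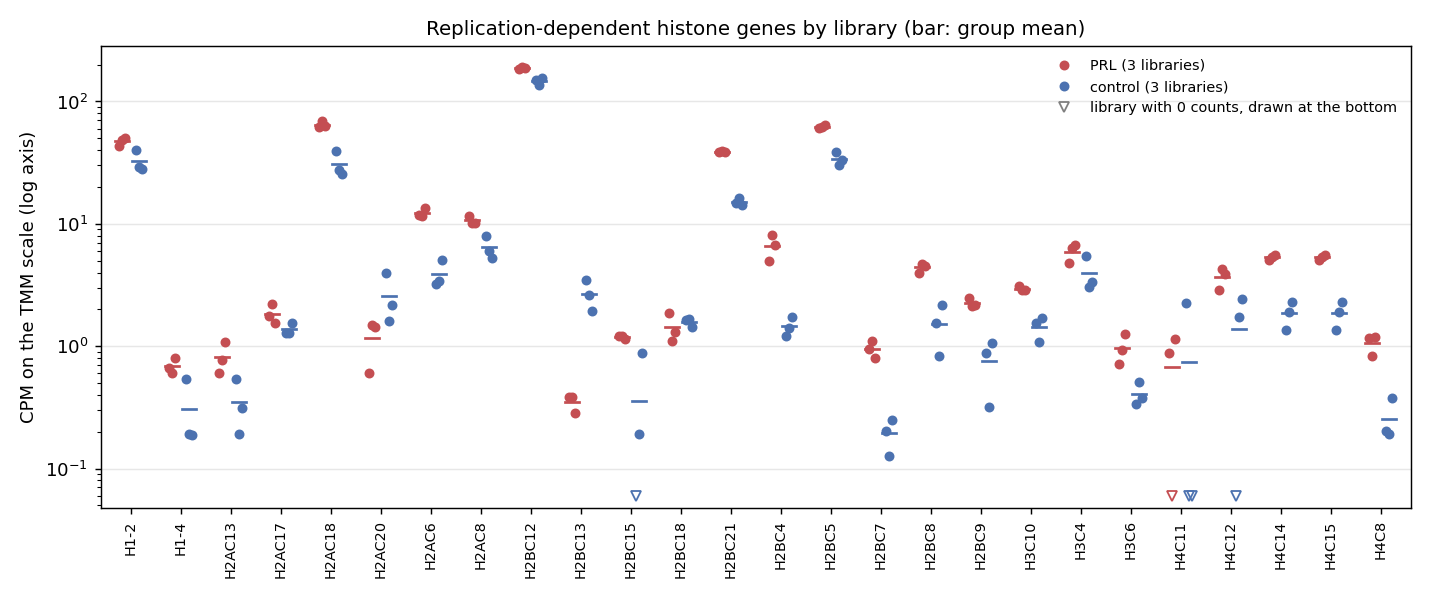
CPM (TMM scale, log axis) of the tested replication-dependent histone genes in each PRL library (left) and each control library (right), with bars at group means and open triangles at the bottom for libraries with 0 counts. In 20 of 26 genes every PRL library lies above every control library, and in H2BC13 and H2AC20 every PRL library lies below.

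The 34 replication-dependent members left untested had 301 counts over the PRL libraries and 141 over the control libraries. Of them, 25 had more counts in PRL cells, 6 had more in control cells and 3 had equal counts. These counts are not scaled, and TMM factors were 1.082 to 1.106 for PRL libraries and 0.8482 to 0.9546 for control libraries. Unscaled counts thus lean to PRL cells, and some members differ by 1 count, such as H2AC11 with 1 in PRL cells and 0 in control cells. The same split over all untested genes was not computed. H2AC15 was at 7, 8 and 10 counts in PRL libraries and 0, 0 and 1 counts in control libraries, and H1-3 at 6, 6 and 8 counts in PRL libraries and 0, 2 and 0 counts in control libraries. All exon bases of H2AC15 (100%) overlap H2BC15 on the other strand, so reads of these genes may not be separable. Some did not lean to PRL cells: H3C11 had 2 counts in PRL cells and 8 in control cells, H3C3 had 11 in PRL cells and 14 in control cells, and H3C15 had 21 in PRL cells and 21 in control cells. H4C5 had 36 counts in PRL cells and 13 in control cells, H2BC17 had 25 in PRL cells and 14 in control cells, H3C2 had 23 in PRL cells and 6 in control cells, H1-5 had 18 in PRL cells and 7 in control cells, and H2AC14 had 13 in PRL cells and 6 in control cells. The counts of H4C4, H2AC16, H4C3 and H2BC14 differed by at most 4 between the groups. H3C14 had all 12 of its counts in 1 PRL library, and it shares its sequence with H3C15.

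Many H2A and H2B genes stand head to head and share the stretch between their starts, and 4 such pairs had both genes tested. H2BC4 and H2AC6, whose starts are 219 bases apart, both rose (2.16 and 1.65), as did H2BC8 and H2AC8 at 283 bases (1.53 and 0.73). In the other pairs the partners were called in opposite directions. H2BC13 fell by 2.89 on the log2 scale while H2AC13, 268 bases away, was called higher at 1.23. H2BC21 rose by 1.35 while H2AC20, 323 bases away, was called lower at -1.12, and the calls of H2AC13 and H2AC20 each depend on single libraries as given above. H2AC13 shares 62.3% of its stretches of 50 bases with H2AC14, and H2AC20 shares 30.5% with other H2A genes. Reads of H2AC13 and H2AC20 therefore cannot all be assigned to these loci.

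Promoters of genes that moved in different directions, with and without the octamer described below, are shown from the RefSeq table on GRCh38.p14, from 250 bases before to 50 bases after the start, on the strand of the gene. Capitals mark TATAAA on the sense strand, and CCAAT and the octamer ATTTGCAT on either strand (CCAAT on the other strand reads ATTGG). H2BC21 (chr1:149886633-149886932, minus strand), H2BC4 (chr6:26123877-26124176, minus strand) and H2BC5 (chr6:26157871-26158170, plus strand) rose, and H2BC13 (chr6:27807880-27808179, minus strand) and H2AX (chr11:119095416-119095715, minus strand) fell.
H2BC21: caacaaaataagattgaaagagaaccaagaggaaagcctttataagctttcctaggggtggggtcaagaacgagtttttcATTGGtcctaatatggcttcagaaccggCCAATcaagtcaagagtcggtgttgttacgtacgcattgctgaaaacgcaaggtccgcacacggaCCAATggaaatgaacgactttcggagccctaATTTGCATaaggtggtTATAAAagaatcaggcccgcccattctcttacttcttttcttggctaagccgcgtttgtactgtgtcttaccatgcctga
H2BC4: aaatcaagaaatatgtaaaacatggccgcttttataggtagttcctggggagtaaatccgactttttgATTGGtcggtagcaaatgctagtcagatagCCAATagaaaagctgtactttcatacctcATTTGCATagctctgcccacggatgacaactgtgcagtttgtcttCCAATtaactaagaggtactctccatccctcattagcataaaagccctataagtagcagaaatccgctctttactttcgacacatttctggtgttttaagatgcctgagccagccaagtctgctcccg
H2BC5: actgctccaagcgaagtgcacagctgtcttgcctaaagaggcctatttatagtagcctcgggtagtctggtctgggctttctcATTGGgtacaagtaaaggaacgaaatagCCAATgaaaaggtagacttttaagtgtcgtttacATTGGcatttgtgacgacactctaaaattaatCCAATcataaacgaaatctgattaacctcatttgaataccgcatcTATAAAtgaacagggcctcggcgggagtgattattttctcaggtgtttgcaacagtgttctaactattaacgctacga
H2BC13: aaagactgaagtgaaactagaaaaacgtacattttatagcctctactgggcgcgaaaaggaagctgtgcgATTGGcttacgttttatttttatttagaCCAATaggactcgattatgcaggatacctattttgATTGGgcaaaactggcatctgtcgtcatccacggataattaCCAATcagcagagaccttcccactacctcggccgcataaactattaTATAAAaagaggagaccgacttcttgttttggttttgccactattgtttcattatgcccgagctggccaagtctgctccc
H2AX: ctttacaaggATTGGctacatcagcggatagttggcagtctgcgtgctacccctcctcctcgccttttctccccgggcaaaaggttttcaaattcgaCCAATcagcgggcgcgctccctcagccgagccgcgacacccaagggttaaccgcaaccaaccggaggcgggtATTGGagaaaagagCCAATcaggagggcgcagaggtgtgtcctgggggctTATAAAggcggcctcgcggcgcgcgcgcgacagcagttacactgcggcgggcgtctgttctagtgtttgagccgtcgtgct
The octamer, the element bound by POU2F1 at H2B promoters, is present in these windows of H2BC21 and H2BC4 and has no exact match in those of H2BC5, H2BC13 and H2AX. Among tested replication-dependent members it was in 9 of the 20 promoters of genes called higher and in 2 of the 4 of genes not called. Of the 2 promoters of genes called lower it was in that of H2AC20, whose call is not stable. H4C14 and H4C15, which are 1 measurement, count separately among the 20. With only 2 genes called lower the directions cannot be compared, and a relation of the octamer to direction was not tested. CCAAT occurs more than once in each promoter shown, and TATAAA occurs in those of H2BC21, H2BC5, H2BC13 and H2AX. Of the 74 members, 67 matched the promoter table, 55 of them replication-dependent. The octamer was in 80.0% of 15 H2B, 71.4% of 14 H2A and none of 10 H4 promoters, against 1.8% of 27305 promoters in all. TATAAA was in 54.5% of replication-dependent promoters, 58.3% of 12 variant promoters and 7.71% of all. CCAAT was in 85.5% of replication-dependent promoters but 2 of 10 of those of H4 genes, in 83.3% of variant promoters and in 35.7% of all. The element TTCNNNGAA, which STAT factors downstream of the prolactin receptor bind, was searched on either strand and found in 1.82% of the replication-dependent promoters, against 7.88% of all promoters. GAAA, any 2 bases and GAAA again, an element of interferon-responsive promoters, was in 7.27% of them on either strand, against 3.65% of all promoters. These matches describe letters within a short window and do not show binding.

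Genes that serve histones were read from lists chosen with earlier results of these data known. Of 33 tested genes of DNA replication and S phase, 27 were called lower, none higher and 6 neither way by edgeR, with a median of -0.80, beside 30.5% lower among all genes tested. At an unadjusted p under 0.05 edgeR gave 0 higher, and limma-voom called 1 higher. MCM5, a subunit of the replicative helicase, averaged 37.49 ± 1.297 CPM in PRL cells and 97.09 ± 11.47 CPM in control cells (SD, n = 3 each; log2 fold change -1.37, adjusted p 1.29e-06 in edgeR's test). GINS1 and GINS2, parts of the helicase complex, fell by 1.06 and 1.23 on the log2 scale. The replication-dependent histone mRNAs and these genes thus moved in opposite directions, and their relation was not tested. Histone genes are also short: counts over FPKM gave replication-dependent members a median length of 440 bases, against 2920 bases for all genes tested, and removing each library's trend on length gave the class a median log2 fold change of 1.71.

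Of 20 genes of histone mRNA processing and histone gene transcription, 7 were called higher, 11 lower and 2 neither way, with a median of -0.38, beside 32.4% higher and 30.5% lower among all genes tested. With TPM 6 were called lower and the median was 0.12. SRRT, a partner of the cap-binding complex, fell by 1.15, CPSF3, the nuclease that cuts histone pre-mRNA, by 0.87, LSM10, a part of the U7 particle that recognises it, by 0.93, and SNRPD3, another part of that particle, by 0.81 on the log2 scale. SLBP, the stem-loop binding protein, was at 94.28 ± 2.419 CPM in PRL cells and 92.75 ± 9.27 CPM in control cells (SD, n = 3 each), a log2 fold change of 0.02 (SE 0.09, adjusted p 0.821 in edgeR's test). Chosen after their values were seen, NPAT, the activator of histone gene transcription, and its partner CASP8AP2 rose (log2 fold change 0.28 and 0.64, adjusted p 0.0274 and 0.019 in edgeR's test), as did LSM11, the other subunit specific to U7 (0.46, adjusted p 0.0028). The remaining genes of the list called higher were UPF1, TUT7, HINFP and ZNF473, at log2 fold changes of 0.5, 0.69, 0.42 and 0.35. POU2F1, which binds the octamer, fell by 0.58 on the log2 scale (adjusted p 5.06e-04 in edgeR's test).

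Among 35 histone chaperones and deposition factors, 5 were called higher, 19 lower and 11 neither way, with a median of -0.32, beside 32.4% higher and 30.5% lower among all genes tested. The balance turned to 11 higher and 8 lower with library totals and to 13 higher and 5 lower with TPM. NASP, which holds the H3-H4 reserve, averaged 100.6 ± 1.134 CPM in PRL cells and 222.0 ± 22.89 CPM in control cells (SD, n = 3 each; log2 fold change -1.14, adjusted p 2.61e-06 in edgeR's test). CHAF1A, the large subunit of the CAF-1 complex that deposits H3-H4 behind the replication fork, fell by 0.87, NAP1L1, a chaperone of H2A-H2B, by 0.90, and DNAJC9, a co-chaperone of H3-H4, by 0.79 on the log2 scale. The 5 genes called higher, named after their values were seen, were HIRA, UBN1, UBN2, CABIN1 and SPTY2D1, at log2 fold changes of 0.68, 0.57, 0.48, 0.25 and 0.62. HIRA, UBN1, UBN2 and CABIN1 belong to the complex that deposits H3.3 outside replication.

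A list of histone genes outside the naming rule, which did not include H2AW, held 4 tested genes. H2BU1, an H2B gene outside those clusters, rose (3.797 ± 0.3202 CPM in PRL cells and 1.104 ± 0.2994 CPM in control cells, SD, n = 3 each; log2 fold change 1.78, adjusted p 1.00e-04 in edgeR's test). MACROH2A1 and MACROH2A2, large H2A variants associated with silent chromatin, had small falls of 0.24 and 0.30 on the log2 scale (adjusted p 0.0171 and 0.00594 in edgeR's test), and both changed sign or lost their call under other scalings. CENPA, the centromeric H3, was not called (log2 fold change -0.29, adjusted p 0.072 in edgeR's test).

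**Figure D5:**
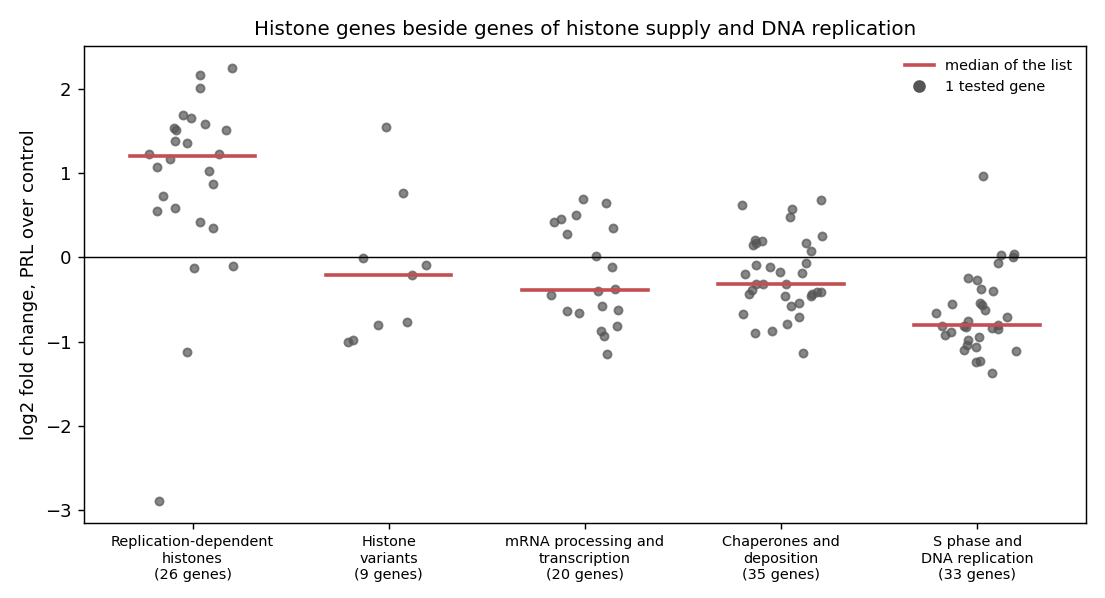
log2 fold changes of PRL over control for each tested gene of the histone classes and of the lists of genes that serve histones or DNA replication, with the median of each list. Replication-dependent histone genes have a median of 1.2 and S phase genes one of -0.80, with the other lists between them.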

How the data were processed

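The labels' protocols name Trizol extraction and standard Illumina library preparation for the 6 libraries, grouped here by their titles. The submitters' processing notes name HISAT2 2.1.0, Bowtie2 2.3.4.3 and the build GRCh38.p13. Not given in the sources used here are the counting tool, the annotation, how RNA was selected and whether strand was used, and where it was not, a gene and an antisense neighbour share reads.

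Per the file headers, the authors deposited 3 measures for each gene and library. The first is a read count, here an estimated count, since 44.08% to 45.89% of the deposited values per library were not whole; it was rounded before testing. The deposited FPKM is the authors' value per length and sequencing depth. The deposited TPM is the authors' value per length, made relative to all transcripts of the library. The authors' 6 columns of group means were not used.

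Members and lists were chosen with earlier results of these data known. Genes were tested in R 4.3.3 with edgeR 4.0.16 (robust quasi-likelihood fit, group as the only term, TMM scaling, filter on low counts by group), which left 14076 genes, with Benjamini-Hochberg adjusted p-values and a threshold of 0.05. Standard errors are the absolute log2 fold change over the root of the F statistic. The p-values measure the spread between these libraries. Tested members are named, as is each untested member with at least 10 counts over the 6 libraries. Of each other list the 4 genes with the smallest adjusted p are named, and further genes are marked as chosen after their values were seen. Single values of some genes that this rule names are not reported here, and counts, medians and sums include them. A floor of 3 counts per library is 0.165 to 0.203 CPM. Intervals are exact 95% intervals of the ratio of counts and, like the floor, cover counting error only. Coordinates, transcripts and shared stretches of 50 bases are from GENCODE 29 (GRCh38), and promoters from RefSeq (GRCh38.p14). The alternatives were other scalings and filters, DESeq2 1.42.0, limma 3.58.1 with voom or on log2 FPKM or TPM (pseudocounts 1 and 0.1), the replicate block, a length trend removed, and each library left out.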

Additional observations from a re-analysis of the deposited data

How the results depend on the processing

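The 28 called histone genes did not change direction in any alternative that gave a value; 20 were called in each of these, and 8 lost the call in some: H1-4, H2AC13, H2AC20, H2AZ1, H2BC15, H3-2, H3C4 and H3C6. Beside the losses named with these genes above, H2AC13 (1.22) and H3C6 (1.23) were not called by DESeq2, H1-4 (1.15) without a filter, H2AZ1 (-0.18) with the length trend removed, H2BC15 without control library 1 or 2 or any 1 PRL library (1.15 to 1.72), and H3C4 with DESeq2 (0.56), DESeq2's size factors (0.57), FPKM (0.46), FPKM with a pseudocount of 0.1 (0.53) and unfiltered FPKM (0.46). The median of all genes tested moved with the scaling: it was 0.26 with library totals, 0.20 with FPKM, 0.24 with FPKM and a pseudocount of 0.1, 0.09 without a filter on FPKM, 0.39 with TPM and 0.08 with the length trend removed, against 0.01 with TMM. Called genes changed accordingly, to 6430 higher and 2398 lower with library totals and 7118 higher and 1375 lower with TPM.

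For replication-dependent genes the lower calls came to 1 with library totals, TPM, FPKM with a pseudocount of 0.1, unfiltered FPKM and the length trend removed. The median was 1.45, 1.43, 0.4 and 1.71 with library totals, a pseudocount of 0.1, unfiltered FPKM and the length trend removed, and the log2 ratio of summed levels 0.93, 0.97 and 1.16 with library totals, FPKM and TPM. Leaving out 1 library gave 15 to 22 higher, 1 to 2 lower, a median of 1.0 to 1.35 and a summed ratio of 0.61 to 0.74.

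For variant genes the median turned to 0.05 with library totals, 0.05 with FPKM, 0.05 with a pseudocount of 0.1, 0.04 unfiltered and 0.25 with TPM, and was 0.0 with the length trend removed. Higher calls came to 5 with TPM and 4 with unfiltered FPKM. The summed ratio turned to 0.13, 0.04 and 0.23 with library totals, FPKM and TPM. Leaving out 1 library gave 1 to 2 higher, 4 to 5 lower, a median of -0.25 to -0.11 and a summed ratio of -0.18 to -0.07.

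Single values of genes not called on the TMM scale also changed sign, and some of those of H3-3A and H3-3B were then called, as given above. H1-10 was then called higher with TPM (0.25), and H4C11 without control library 1 (6.54). H2AC17 and H4C12 were called higher in some alternatives without a change of sign, as given above. In the order library totals, FPKM, TPM, FPKM with a pseudocount of 0.1, unfiltered FPKM and the length trend removed, H2BC18 was 0.12, 0.1, 0.27, 0.13, 0.1 and 0.66, H4C11 0.18, 0.48, 0.74, 1.43, 0.48 and 0.85, H1-10 0.05, 0.05, 0.25, 0.05, 0.05 and 0.09, and H3-3A 0.16, 0.17, 0.37, 0.17, 0.17 and 0.41. H3-3B was 0.24, 0.24, 0.44, 0.24 and 0.24 in the first 5 of these and 0.04 with the upper quartile. H4C11 was 1.22 with limma-voom and 1.02 when summed with H4C12. Summed H3 turned to 0.2, 0.19 and 0.39 with library totals, FPKM and TPM. Leaving out 1 library gave H2BC18 values of -0.38 to 0.02, H4C11 of -0.7 to 6.54, H3-3A of -0.17 to 0.02, H3-3B of -0.08 to 0.04 and summed H3 of -0.12 to 0.01. MACROH2A1 turned to 0.02 with library totals and 0.13 with TPM, MACROH2A2 to 0.15 with TPM, and CENPA to 0.16 with TPM and 0.06 with the length trend removed.

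In the other lists, given in the order library totals, FPKM, TPM, FPKM with a pseudocount of 0.1, unfiltered FPKM and the length trend removed, the medians were -0.01, -0.03, 0.16, -0.03, 0.0 and -0.01 for histone genes outside the rule, -0.13, -0.06, 0.12, -0.07, -0.06 and -0.15 for histone mRNA processing, -0.06, -0.06, 0.13, -0.07, -0.06 and -0.16 for chaperones, and -0.55, -0.49, -0.29, -0.49, -0.49 and -0.7 for S phase genes. With the upper quartile they were -0.33 for processing and -0.27 for chaperones, and with no filter -0.16 outside the rule. Chaperones called higher came to 11, 10, 13, 10, 10 and 8, and those called lower to 8, 12, 5, 12 and 11 in the first 5. S phase genes called higher came to 2, 2, 6, 2 and 2 in the first 5 and 1 with limma-voom, those called lower to 17 with TPM, and processing genes called lower to 6 with TPM. Outside the rule, 2 genes were higher with no filter and with unfiltered FPKM, and lower calls came to 0 in 5 of the alternatives and 1 with unfiltered FPKM. Leaving out 1 library gave medians of -0.29 to -0.16 outside the rule, -0.43 to -0.3 for processing, -0.34 to -0.24 for chaperones and -0.81 to -0.71 for S phase genes. It gave higher calls of 1 to 1, 4 to 7, 4 to 10 and 0 to 1 in the same lists, and lower calls of 1 to 3 outside the rule, 11 to 11 for processing, 18 to 19 for chaperones and 26 to 28 for S phase genes. The cause of these differences was not tested.

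The replicate numbers do not pair the libraries: libraries with the same number had correlations of -0.105, 0.0428 and -0.0569. With the replicate block, 19 replication-dependent genes were higher and 2 lower (median 1.21), 2 variant genes higher and 4 lower (median -0.21), H1-4 was not called at 1.19, H4C11 was 0.2, and 1 gene outside the rule was lower. The 39 untested members did not pass the filter on low counts, and most have fewer than 10 counts in all. The part of sequencing depth in this was not tested.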

Other observations

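H2AW, an H2A gene that neighbours H2BU1 and was chosen after its values were seen, had 28.22, 30.98 and 32.97 CPM in PRL libraries, against 17.27, 16 and 20.14 CPM in control libraries. The groups did not overlap, and its log2 fold change was 0.79 (SE 0.11, edgeR adjusted p 1.19e-04).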
